A study of Mus musculus with 20 samples.

Results

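B-MF are macrophages that arise from bone marrow (BM) B cells in culture with medium conditioned by 4T1.2 mouse breast cancer cells, and a minority of them carries transcripts of Cdkn2a, the gene of the growth inhibitors p16Ink4a and p19Arf. The 872 cells described here were selected on their corrected transcript counts: at least 1 count of Cdkn2a, fewer than 15 counts of Egr1 and Ier3 together, fewer than 3 of Mki67 and Top2a, fewer than 8 of Mcm5 and Mcm6, and fewer than 20 of H2-Aa, H2-Ab1 and H2-Eb1. They were 455 of the 5237 cells in library B-MF 1 and 417 of the 5326 cells in library B-MF 2, out of 10563 B-MF and 31683 cells profiled in the series. Their reference was the 2280 and 2542 B-MF with no Cdkn2a count that met the same other criteria, called Cdkn2a-zero cells below. A count of 0 in a single cell does not show that the gene was silent, because droplet sequencing captures only a part of the transcripts.

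The study followed the conversion of B cells into macrophages by cancer, with single-cell RNA-seq of 2 B-MF libraries, 2 libraries of macrophages made from monocytes (Mo-MF) and 4 libraries of tumor-associated macrophages (TAM) from mice with 4T1.2 cancer, and with ATAC-seq of 12 libraries of CSF1R-plus and CSF1R-minus cells from BM and spleen. For B-MF, lineage-negative BM B cells were sorted and cultured in the conditioned medium for a week, and Mo-MF were made from monocytes in the same medium. Both were compared as cells high in F4/80 and CD11b, and sorted single-cell suspensions were loaded. The labels name no transgene or drug for these libraries and give no strain, sex or age. The labels number the B-MF libraries as replicates without saying whether they came from separate mice. For each gene, the tests take out the mean difference between these libraries. They measure only how far differences between groups of cells varied from library to library, and give no spread between mice.

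Cdkn2a encodes a pair of unrelated proteins from different first exons. p16Ink4a inhibits the kinases Cdk4 and Cdk6 that cyclin D activates and so holds the retinoblastoma protein in its growth-restraining form, while p19Arf binds Mdm2 and thereby stabilizes p53. The locus is kept silent by Polycomb proteins in most young tissues, rises with repeated division, oncogenic Myc or Ras signals and senescence, and is also transcribed in some macrophages that are not senescent. Egr1 and Ier3 are immediate-early genes, Mki67 and Top2a mark cells in G2 and mitosis, and Mcm5 and Mcm6 belong to the helicase of DNA replication.

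The 2 transcripts of Cdkn2a share 2 of their 3 exons, and their starts lie 12427 bases apart on the minus strand of chromosome 4. The first exon of the p19Arf transcript covers chr4:89294334-89294619 and that of the p16Ink4a transcript chr4:89281986-89282192 in build GRCm38 (mm10). The sequencing read the 3′ end of transcripts, which both share, so a Cdkn2a count cannot be assigned to either. In the ATAC-seq peak lists, a peak overlapped the 250 bases upstream of each start in all 12 libraries. The proximal start itself lay in that peak in every library, and the distal start only in the BM libraries. The 12 libraries hold cells of BM and spleen that the labels call macrophages and the study describes as B-cell precursors, and no B-MF. Fold enrichment at the distal start, that of p19Arf, was 10.7 to 12.1 in the 3 CSF1R-plus BM libraries, 10.6 to 12.7 in CSF1R-minus BM, 11 to 14.5 in CSF1R-plus spleen and 9.64 to 10.9 in CSF1R-minus spleen. At the proximal start, that of p16Ink4a, it was 7.56 to 8.03, 8.14 to 10.3, 5.45 to 7.27 and 4.18 to 6.14 in the same order, with the spleen libraries below all BM libraries. The median over all peaks of a library was 7.34 to 8.59 in BM and 9.22 to 10.1 in spleen. Among the peaks of its own library, the distal peak stood at percentiles 66.0 to 72.7, 62.6 to 69.5, 58.6 to 67.1 and 49.3 to 57.2 in that order. The proximal peak stood at 47.9 to 54.9, 49.3 to 59.0, 18.8 to 37.9 and 5.8 to 26.8. The 250 bases upstream of each start are shown because they are the promoter windows of the selecting gene. They are RefSeq windows of GRCm38.p6 on the minus strand, at chr4:89294620-89294869 for the distal and chr4:89282193-89282442 for the proximal start, and capitals mark the bases inside a peak in every library.
Distal start: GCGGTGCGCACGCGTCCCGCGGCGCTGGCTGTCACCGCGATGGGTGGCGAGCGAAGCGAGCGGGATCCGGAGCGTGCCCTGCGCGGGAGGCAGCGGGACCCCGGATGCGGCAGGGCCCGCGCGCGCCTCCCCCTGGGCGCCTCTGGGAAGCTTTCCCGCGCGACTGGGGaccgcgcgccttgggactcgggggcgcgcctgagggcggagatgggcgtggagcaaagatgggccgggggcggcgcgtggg
Proximal start: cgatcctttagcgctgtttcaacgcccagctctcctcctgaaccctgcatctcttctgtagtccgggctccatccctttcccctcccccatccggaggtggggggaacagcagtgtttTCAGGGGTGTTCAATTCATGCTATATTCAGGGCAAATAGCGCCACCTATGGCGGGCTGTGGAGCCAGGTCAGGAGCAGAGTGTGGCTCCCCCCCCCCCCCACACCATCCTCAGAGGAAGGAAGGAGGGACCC
The distal window held 40 CpG dinucleotides and 78.4% G and C, a share that 1.93% of all promoter windows reached. The proximal window held 7 CpG dinucleotides and 60% G and C, reached by 27.9% of windows. On either strand the distal window matched the Sp1 core GGGCGG at 2 places and the proximal window at none, against 32.7% of 32851 windows of the same length with at least 1 match. No match was found in either window for the E-box CACGTG, which 6.02% of windows held. The sequence TTTCGCGC, a form of the E2F site held by 0.256% of windows, was absent from both. The sequence CCGGAAG, a form of the Ets site held by 6.91%, was likewise absent, as was TATAAA, held by 12.4%. Only these exact sequences were searched, so the windows may hold other forms of the same sites.

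Cdkn2a counts were found mostly in B-MF and rarely in Mo-MF. Under the other 4 criteria, hereafter the Egr1-low gate, 16.6% of cells had a Cdkn2a count in B-MF 1 (95% exact binomial interval, 15.3 to 18.1%) and 14.1% in B-MF 2 (12.9 to 15.4%). In Mo-MF they were 3 of 4187 cells (0.0717%, 0.0148 to 0.209%) and 6 of 4682 cells (0.128%, 0.047 to 0.279%), at median totals of 19479 and 19332 corrected counts per cell against 19553 and 18456 in B-MF. Totals of corrected counts do not give sequencing depth, so they are no control for it. The intervals of the B-MF and Mo-MF libraries were far apart. No cell type known to lack Cdkn2a was present in number in the B-MF libraries, so the share that free RNA gave within them was not measured. In TAM, which had fewer counts per cell, the gate held 0.39, 0.883, 0.518 and 0.62% Cdkn2a-positive cells in the 4 libraries. All these intervals cover counting error only.

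**Figure D1:**
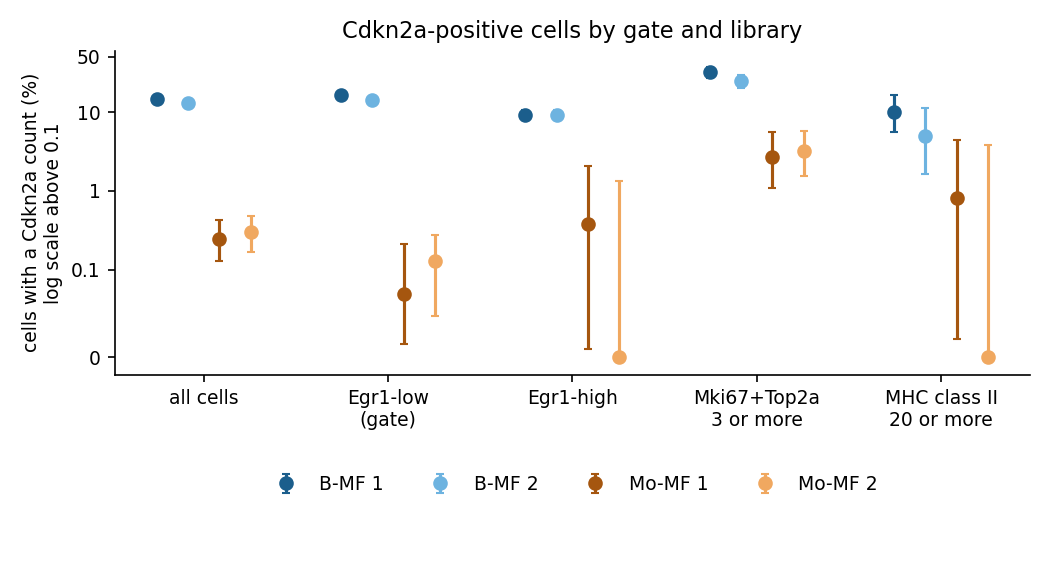
Share of cells with at least 1 Cdkn2a count in each in vitro library, for all cells and for groups of cells defined by the selecting genes (vertical axis in percent, logarithmic above 0.1 and linear below); points are libraries and bars are 95% exact binomial intervals. B-MF lie at 14.1 to 16.6% in the Egr1-low gate and Mo-MF at 0.0717 and 0.128%.

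Among B-MF, the share was lower in cells with high Egr1 and Ier3. It was higher in dividing cells at 1 or more Cdkn2a counts but not at 2 or more. B-MF with at least 15 counts of Egr1 and Ier3 under the same other limits, called Egr1-high below, were Cdkn2a-positive in 9.13% and 9.24%. In cells with at least 3 counts of Mki67 and Top2a the share was 31.8% and 24.9%, at a median of 4705 and 4447 detected genes. After thinning to 10000 counts it was 16.3% and 13.6% there against 12.1% and 10.1% in the Egr1-low gate, with overlapping intervals. At 2 or more Cdkn2a counts it was 7.72% and 6.8% (intervals, 5.1 to 11.1% and 4.4 to 9.95%) against 8.45% and 6.96%. The intervals of the gate were then 7.43 to 9.55% and 6.07 to 7.94%, so no order can be read at 2 or more counts. In cells over the MHC class II limit the share was 10.1% and 4.95%. Mo-MF with at least 3 Mki67 and Top2a counts reached 2.72% and 3.18%. These shares are descriptions, since the selecting genes define the groups. Just inside the Egr1 and Ier3 limit, at 14 counts, 14 of 148 cells in B-MF 1 and 18 of 168 in B-MF 2 were positive, and just outside, at 15 counts, 16 of 130 and 21 of 158, so the limit does not sit at a step. At 2 counts of Mki67 and Top2a the positive cells were 32 of 138 and 20 of 127, and at 3 counts 7 of 27 and 6 of 45.

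Most selected cells held few Cdkn2a transcripts. In B-MF 1, 224 cells held 1 count, 90 held 2 and 141 held at least 3, up to 17, and in B-MF 2 they were 211, 86 and 120, up to 9. The mean was 2.44 and 2.22 counts per cell. Requiring at least 2 counts lowered the share in the gate to 8.45% and 6.96%, and thinning every cell to 10000 counts to 12.1% and 10.1%. Positive cells also held more genes: a median of 4145 and 3926 detected genes against 3848 and 3412 in Cdkn2a-zero cells, and after thinning 2802 and 2688 against 2648.5 and 2453. Of the 684 and 741 gated cells with the fewest detected genes 4.53% and 5.4% were positive, and of the 684 and 740 with the most 23.8% and 24.3%. The difference in detected genes ran in the same direction as most gene differences below, so the counts of called genes and the main genes and lists are also given with the Cdkn2a-zero cells weighted to the detected genes of the positive cells. Median totals were 19781 and 19465 counts in positive and 19450 and 18410 in Cdkn2a-zero cells, and mitochondrial transcripts were 6.67 and 6.94% against 7 and 7.13%. Of the barcodes, 45 occurred in more than 1 in vitro library, 4 of them in selected cells.

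The selected cells were macrophages by their markers with the exception of a few cells. Over 7 macrophage genes (Csf1r, Adgre1, Itgam, Cd68, Mrc1, Fcgr1 and C1qa) the median sum was 79 and 78 counts in positive and 80 and 81 in Cdkn2a-zero cells. B-cell genes were low in both: the whole list of 20, of which 16 were in the table, summed to 2.63 and 2.34 counts per positive cell against 2.18 and 2.27. Ighm, the heavy chain of IgM, was at 0.468 and 0.422 counts per positive and 0.342 and 0.384 per Cdkn2a-zero cell. All 4 basophil and mast cell markers were at 0, and the neutrophil list summed to 0.42 and 0.348 counts against 0.988 and 0.694, with Ngp, Camp and Ltf at 0 in selected cells.

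A few selected cells stood apart: 4 in B-MF 1 and 4 in B-MF 2 (0.879 and 0.959%) had at least 3 counts of the fibroblast collagens and decorin (Col1a1, Col1a2, Col3a1, Dcn) or fewer than 20 counts over the macrophage genes. Csf1r, Tyrobp and Ptprc (CD45) were at 0 in 6 of them and Cd68 in 5, while Sparc was at 4 to 79 counts, Cald1 at 13 to 90 and Timp1 at 17 to 114. At least 3 fibroblast counts were found in 7 selected cells and in none of the Cdkn2a-zero cells of the gate. Over all B-MF, the 10 and 9 cells with at least 30 fibroblast counts were all Cdkn2a-positive, against 0 and 1 such cells in Mo-MF. How cells with so few macrophage genes came to be in the sorted libraries was not tested, and no doublet caller was run. The 8 cells held 98.4% of all Sparc counts of the selected cells, 99% of Col1a2 and Igfbp7 and 95.6% of Cald1, but 2.21% of the Cdkn2a counts, so results below are given with and without them. They are called the 8 outlying cells, and where they are left out, the 5 Cdkn2a-zero cells with fewer than 20 macrophage counts are left out too. For the Egr1-high cells, the outlying cells are the 7 Cdkn2a-positive ones beyond the same limits.

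**Figure D2:**
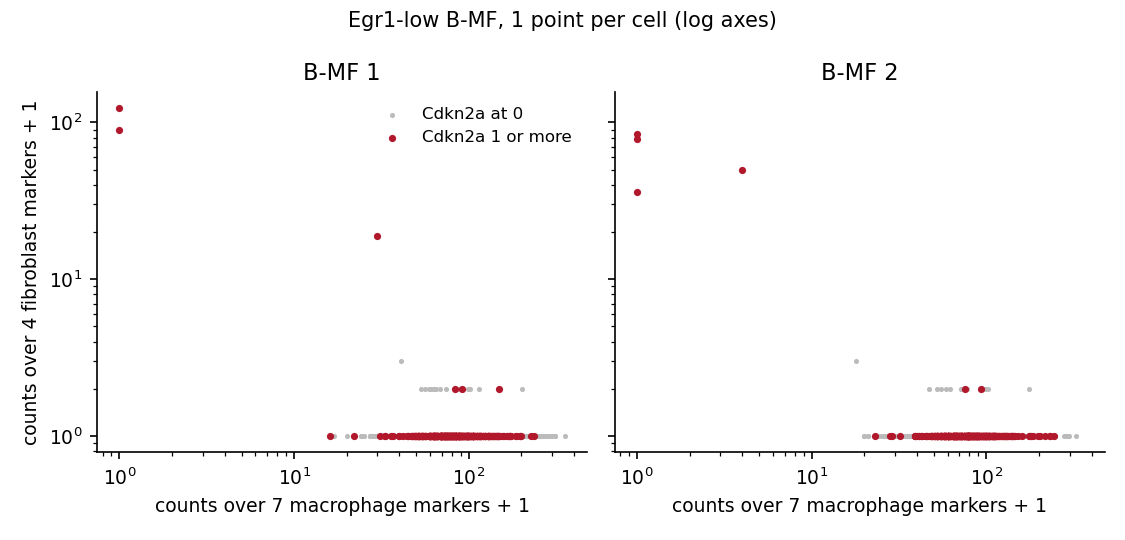
Each point is a cell of the Egr1-low gate, placed by its summed counts over 7 macrophage markers (horizontal) and 4 fibroblast markers (vertical), both plus 1 on log axes, with Cdkn2a-positive cells in red and Cdkn2a-zero cells in gray. Of the 7 positive cells with at least 3 fibroblast counts, 6 lie far to the left, apart from all other cells.

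The clearest difference was a lower level of Apoe and of a few other genes in the Cdkn2a-positive cells. Apoe, the apolipoprotein with which macrophages export lipid, was at 49.8 and 46.5 counts per cell in positive cells of B-MF 1 and B-MF 2 and at 137 and 129 in Cdkn2a-zero cells. The groups did not overlap, and the log2 difference was −1.47 (SE 0.07, limma adjusted p = 0.00111). Such lack of overlap, here and below, is a description of called genes, and its share over all genes was not counted. Pla2g7, which degrades platelet-activating factor, was at 1.09 and 1.11 counts against 2.61 and 2.49 (−1.14, SE 0.05, adjusted p = 0.00111). Gngt2, a G-protein gamma subunit, was at 0.976 and 1.02 counts against 2.03 and 1.99 (−0.94, SE 0.07, adjusted p = 0.00486). Without the outlying cells and with weighting, the 3 genes were still lower, by limma log2 differences of −1.13, −0.84 and −0.75. Apoe and Gngt2 passed the threshold in all 15 alternatives that were tested, with adjusted p of 2.64e-07 to 0.0375 and 1.23e-05 to 0.0393. Pla2g7 passed in 14 and had an adjusted p of 0.0575 in cells at or below the median of replication and mitosis counts.

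Counted over all 8545 genes with a mean of at least 0.1, 828 (9.69%) were higher and 144 (1.69%) lower in positive than in Cdkn2a-zero cells at a limma adjusted p under 0.05, and all had the same sign in both libraries. The median log2 difference over all genes was 0.11, that is, toward the positive cells. Without the outlying cells, 662 of 8501 genes (7.79%) were higher and 122 (1.44%) lower, of which 634 and 118 were among the first counts. With weighting alone, the counts were 11 (0.126%) and 4 (0.046%) of 8701 genes and the median −0.00. With both, 0 of 8655 genes were higher and 6 (0.0693%) lower by limma, with 302 higher and 501 lower at an unadjusted p under 0.05, and no other tool was run. Without the library as a block 36 genes were higher and 16 lower, and with means scaled to 10000 counts per cell 506 were higher and 225 lower of 7077 genes.

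The largest higher values belonged to the 8 outlying cells. Cald1, Aebp1, Sparc, Igfbp7, Col1a2, Bgn, Timp1, Tpm2, Serpinh1 and Serpinf1, most of which encode matrix or cytoskeletal proteins, had the 10 largest log2 differences, 1.33 to 2.28. Sparc, a collagen-binding matrix protein, was at 0.33 and 0.381 counts per positive cell and at 0.00395 and 0.00197 per Cdkn2a-zero cell. Averaged over the selected cells without these, Sparc was at 0.00579 counts. Timp1, an inhibitor of matrix metalloproteinases, was the only one of the 10 still tested without them, and its log2 difference was then 0.09 (adjusted p = 0.776, and 1.83e-07 to 0.978 over all alternatives). These genes passed the filter on low values through the few cells in which they were high.

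Without those cells, the 10 largest higher values included a protease, a lipid receptor and cyclins. Their counts, differences and p-values are given with all cells unless stated otherwise. Mmp12, macrophage elastase, was at 42.8 and 46.7 counts in all positive cells against 22.7 and 21.5 in Cdkn2a-zero cells (log2 difference 1.01, SE 0.17, limma adjusted p = 0.0269). Cd36, the scavenger receptor for oxidized lipoprotein, was at 9.44 and 10.2 against 5.58 and 5.72 (0.78, SE 0.08, adjusted p = 0.00992). Ccnd1, cyclin D1, which activates the kinases that p16Ink4a inhibits, was at 4.33 and 4.23 against 2.6 and 2.43 (0.75, SE 0.07, adjusted p = 0.00992). For each of these genes both positive values lay above both Cdkn2a-zero values. Hmga2, an architectural chromatin protein of embryonic and transformed cells, was at 0.82 and 0.698 against 0.339 and 0.319 (1.0, SE 0.08, adjusted p = 0.00486). Id1, a helix-loop-helix inhibitor that is known to restrain p16Ink4a transcription, was at 0.503 and 0.393 against 0.234 and 0.241 (0.69, SE 0.08, adjusted p = 0.0153). Qpct, Ccnb2 and Npy completed the list with log2 differences of 0.83, 0.75 and 0.71, beside the naming genes St3gal5 and Myc, which are described below without a test. With weighting and without the outlying cells, the differences of Mmp12, Cd36, Ccnd1, Hmga2 and Id1 were 0.71, 0.50, 0.41, 0.71 and 0.33, and none passed the threshold (adjusted p = 0.369, 0.148, 0.103, 0.103 and 0.348). Qpct, Ccnb2 and Npy did not pass there either, at 0.61, 0.54 and 0.45 (adjusted p = 0.196, 0.348 and 0.274).

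The other lower genes included an acute-phase protein, a chemokine and a cytokine receptor. Saa3, an acute-phase protein, was at 1.2 and 0.619 counts against 3.12 and 2.8 (−1.66, SE 0.17, limma adjusted p = 0.01). Ccl8, a chemokine, was at 3.31 and 1.78 against 6.57 and 6.21 (−1.36, SE 0.19, adjusted p = 0.0207). Csf3r, the G-CSF receptor, was at 0.347 and 0.3 against 0.681 and 0.626 (−0.83, SE 0.10, adjusted p = 0.0164). In all 3 genes the groups were apart in both libraries, with B-MF 2 showing the lower positive value. Ifitm1, F13a1, Ctsh and Clec4a1 had differences of −1.24, −1.19, −0.75 and −0.74. Thbs1, thrombospondin, was at 0.589 and 0.456 against 1.15 and 1.01 and was called without the outlying cells (−1.09, adjusted p = 0.00354) but not with them (−0.93, adjusted p = 0.0767), nor without them and with weighting (−0.76, adjusted p = 0.0912). Tmem176a and Tmem176b, related membrane proteins, had differences of −0.68 and −0.74 with all cells and −1.11 and −1.13 without the outlying cells, and their positive means were then 0.184 and 0.172 counts for Tmem176a and 0.228 and 0.23 for Tmem176b. Rapsn, a receptor-clustering protein, was at 0.42 and 0.393 against 0.587 and 0.541 (−0.39, SE 0.05, adjusted p = 0.0202). With weighting as well, Tmem176a, Tmem176b and Rapsn were still lower (−0.89, −0.88 and −0.57, adjusted p = 0.0189, 0.0289 and 0.0393), whereas Saa3, Ccl8 and Csf3r did not pass (adjusted p = 0.0912, 0.181 and 0.24). Ifitm1, F13a1, Ctsh and Clec4a1 did not pass there either, at −0.95, −1.11, −0.53 and −0.48 (adjusted p = 0.307, 0.216, 0.142 and 0.103).

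**Figure D3:**
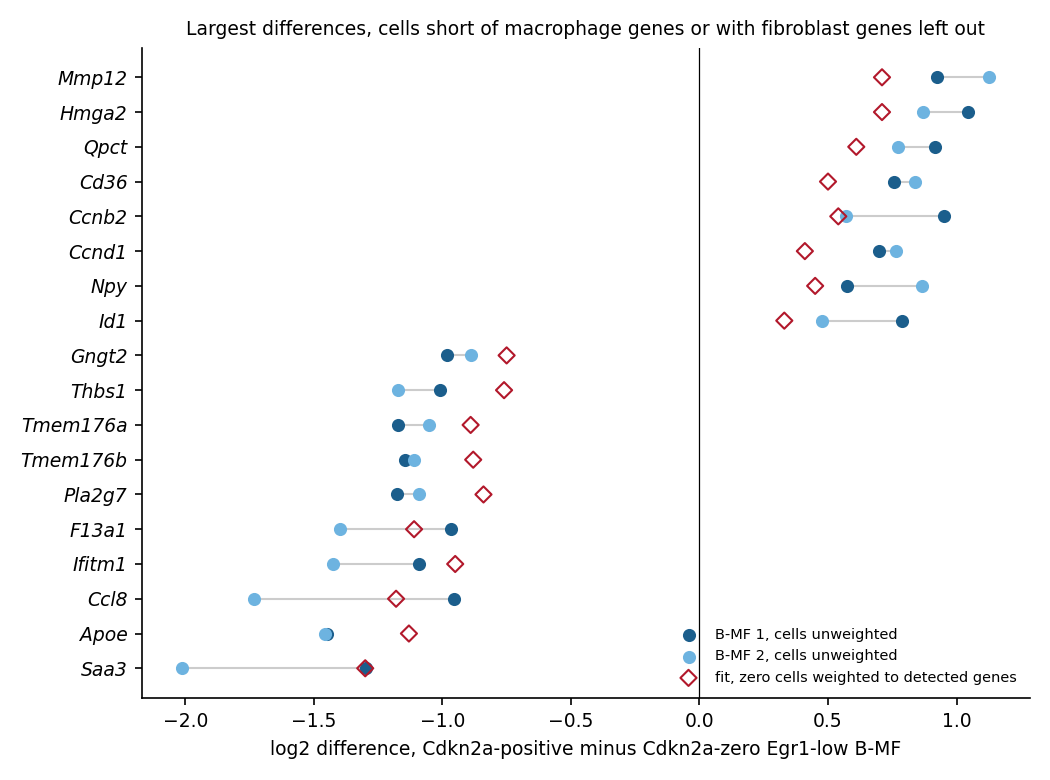
Log2 difference of the mean corrected count plus 0.1, Cdkn2a-positive minus Cdkn2a-zero cells of the Egr1-low gate, for the 10 largest called differences in each direction without the outlying cells, less the naming genes St3gal5 and Myc. Filled points are the 2 libraries and open diamonds the limma estimate with the Cdkn2a-zero cells weighted to detected genes, which is nearer to 0 than the mean of the libraries in all genes shown and still −1.13 for Apoe.

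The genes by which the group had been picked out are described without a test, because they were proposed from these same cells, and they are left out of the list counts given below. The fit over all genes included them, and nothing is read from their calls there. Myc, the growth-promoting transcription factor that also induces p19Arf, was at 0.697 and 0.667 counts per positive and 0.426 and 0.37 per Cdkn2a-zero cell. Fabp3, a fatty acid carrier, was at 1.96 and 1.77 against 1.41 and 1.2, and Lpl, lipoprotein lipase, at 30.9 and 30.5 against 23.8 and 23.5. Gpx3, the secreted glutathione peroxidase, was at 3.82 and 3.52 against 2.86 and 2.88. St3gal5, the GM3 ganglioside synthase, was at 2.29 and 2.05 against 1.31 and 1.26. All 5 were above the Cdkn2a-zero value in both libraries, by log2 differences of 0.34 for Gpx3 to 0.71 for St3gal5, and by 0.17 to 0.40 with weighting and without the outlying cells.

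The genes downstream of p16Ink4a and p19Arf are given by list. The lists were drawn up with earlier results of these data known, and their counts are to be read against 9.69% of genes higher, 1.69% lower and a median of 0.11. Of 14 CDK inhibitors and growth brakes tested none was higher and 2 were lower, the antiproliferative genes Btg1 (2.07 and 2.12 against 2.85 and 2.69 counts) and Btg2 (2.82 and 2.48 against 3.56 and 3.25), and the list median was −0.05. Cdkn1a, which encodes p21, was at 8.08 and 8.11 counts against 7.93 and 7.64 (0.05, SE 0.05, adjusted p = 0.475). Of 18 p53 target genes, 2 were higher, a share near that of all genes: Phlda3 (1.27 and 1.07 against 0.899 and 0.751) and Zmat3 (0.558 and 0.458 against 0.412 and 0.369), none was lower and the median was 0.07. Bax and Ccng1 had differences of 0.09 and 0.05 (adjusted p = 0.246 and 0.503). Of 10 G1 cyclins, kinases and E2F factors, 3 were higher, Ccnd1, E2f3 and E2f4, and the median was 0.20, while Cdk4, the kinase that p16Ink4a binds, was at 1.64 and 1.53 against 1.57 and 1.53 counts (0.03, adjusted p = 0.719). In the Egr1-high cells described below, 1 of the 14 brakes, 7 of the 18 p53 targets and 5 of the 10 G1 genes were higher, where 19.4% of all genes were.

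Some genes of growth and division were higher among cells gated to fewer than 3 counts of Mki67 and Top2a. That limit did not remove all such transcripts, since Mki67 was still at 0.138 and 0.129 counts per positive and 0.102 and 0.101 per Cdkn2a-zero cell. Of 17 replication and mitosis genes tested outside the selecting genes, 4 were higher (Ccnb2, Birc5, Stmn1 and Cdk1), none was lower and the median was 0.14. With Cdkn2a-zero cells weighted to replication and mitosis counts, which include these same genes, 0 of 17 were higher and the median was 0.01. Ccnb2 was at 0.344 and 0.308 counts in cells with 1 Cdkn2a count. At 3 or more it was at 0.135 and 0.125, against 0.0996 and 0.103 in Cdkn2a-zero cells. Stmn1, which destabilizes microtubules, was at 2.07 and 1.62 counts against 1.44 and 1.35 (0.37, SE 0.09, adjusted p = 0.0453), and its sign turned to −0.16 in cells at or below the median of 6 replication and mitosis counts. Pcna was at 1.08 and 0.94 against 1.07 and 0.944 (0.00, adjusted p = 0.979). Of 22 Myc-driven genes, 6 were higher (Nop16, Srm, Ppan, Ldha, Eif4a1 and Eif5a), none lower, with a median of 0.18, and 2 were higher without the outlying cells. Of 8 partners and antagonists of Myc, Mxd4 was higher (1.68 and 1.77 against 1.49 and 1.39) but not without the outlying cells (adjusted p = 0.0523), and the median was 0.07. Of 22 Polycomb proteins and other regulators of Cdkn2a, Id1 and Id2 were higher, and Suz12, a core Polycomb protein, was at 0.624 and 0.568 against 0.612 and 0.588 (−0.01, adjusted p = 0.928). With weighting and without the outlying cells, no gene of the growth, p53, Myc or Polycomb lists passed the threshold.

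Antioxidant genes were the list with the most higher members. Of 20 tested, 8 were higher (Prdx1, Gclc, Srxn1, Gclm, Cat, Prdx3, Gsr and Gpx1), none was lower and the median was 0.22. Without the outlying cells 7 were higher, none was lower and the median was 0.20. Prdx1, a peroxiredoxin, was at 58.7 and 59.4 counts against 37.9 and 41.3 (0.58, SE 0.06, adjusted p = 0.0103). Gclc and Gclm, the subunits of the enzyme that limits glutathione synthesis, were at 0.613 and 0.494 against 0.408 and 0.364 and at 2.02 and 1.93 against 1.51 and 1.39. In all 3 genes the groups were apart in both libraries. After weighting and without the outlying cells none of the 20 passed, and the median was 0.08 against −0.01 for all genes.

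Lipid genes were called in both directions. Of 19 genes of uptake, storage and export, Cd36 was higher and 3 were lower, Apoe, Pltp and Abca1, which load or carry lipid outward, and the median was 0.07. Pltp, the phospholipid transfer protein, was at 8.38 and 7.71 counts against 13.3 and 13 (−0.70, SE 0.05, adjusted p = 0.00486). Fabp5 was at 153 and 153 against 153 and 150 (0.02, adjusted p = 0.879). After weighting and without the outlying cells Apoe alone was called. Of 16 sterol synthesis genes only Fdps was higher (0.29, SE 0.05, adjusted p = 0.0287), and its difference was −0.0012 with weighting. Of 12 glycosphingolipid genes none was called by limma, and the median was −0.01.

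Without the outlying cells, 6 of 18 secreted factors linked to senescence were higher (Mmp12, Mmp13, Plaur, Ccl2, Plau and Ccl3) and 1 was lower (Vegfa). Of all genes in that fit, 7.79% were higher and 1.44% lower. The list median was 0.16 against 0.11 for all genes. With those cells Igfbp7 also passed the filter on low values, and 99% of its counts were in the 8 outlying cells, so it is not counted. With all cells, Plaur, the urokinase receptor, was at 0.938 and 0.839 counts against 0.636 and 0.533 (0.53, SE 0.05, adjusted p = 0.00992), and Mmp13 at 0.321 and 0.254 against 0.176 and 0.154 (0.54, SE 0.10, adjusted p = 0.0287). Without the outlying cells their limma adjusted p was 0.0177 and 0.0305. Il6 was at 0 in all selected cells, and Spp1, osteopontin, was at 120 and 106 against 109 and 107 (0.06, adjusted p = 0.52). With weighting and without the outlying cells none of the 18 genes still tested passed.

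Among 20 macrophage identity genes none was higher and 3 were lower, the complement chains C1qa (12.5 and 10.9 against 15.3 and 15.2), C1qb and C1qc, with a median of −0.10, and without the outlying cells the protease Ctsd was also called, as higher (0.20, adjusted p = 0.0496). Cd68 was at 40.7 in both libraries of positive cells against 38 and 38.2 (0.09, adjusted p = 0.233), and Lyz2 at 476 and 460 against 501 and 485 (−0.08, adjusted p = 0.297). Of 18 immediate-early genes outside the selecting pair, Egr2 was higher (0.28) and Ier2 lower (−0.25), with a median of −0.07, in cells limited by their Egr1 and Ier3 counts, and Ier2 was not called without the outlying cells (adjusted p = 0.0507). Of 3 genes of antigen presentation outside the selecting genes, Cd74 (0.629 and 0.739 against 0.959 and 1.06) and Cd86 were lower. Of 3 B-cell genes tested none was called with all cells. Ighm was higher without the outlying cells (0.31, limma adjusted p = 0.0467), but not with weighting as well (0.18, adjusted p = 0.469). Leaving cells out moved its Cdkn2a-zero mean in B-MF 2 from 0.384 to 0.342 and its positive means from 0.468 and 0.422 to 0.472 and 0.426. Ighm and Blnk were higher in the Egr1-high cells (0.67 and 0.36, adjusted p = 0.0127 and 0.0159). Of the neutrophil list Csf3r, the only member tested, was lower. No T, NK, dendritic, basophil or mast cell marker reached the filter on low values, Col1a1 and Col1a2 reached it only with the outlying cells included, and no carcinoma marker was in the table. With weighting and without the outlying cells, no gene of these lists that was still tested passed, with adjusted p of 0.337 for C1qa, 0.66 for Egr2, 0.401 for Ier2, 0.294 for Cd74 and 0.363 for Cd86.

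**Figure D4:**
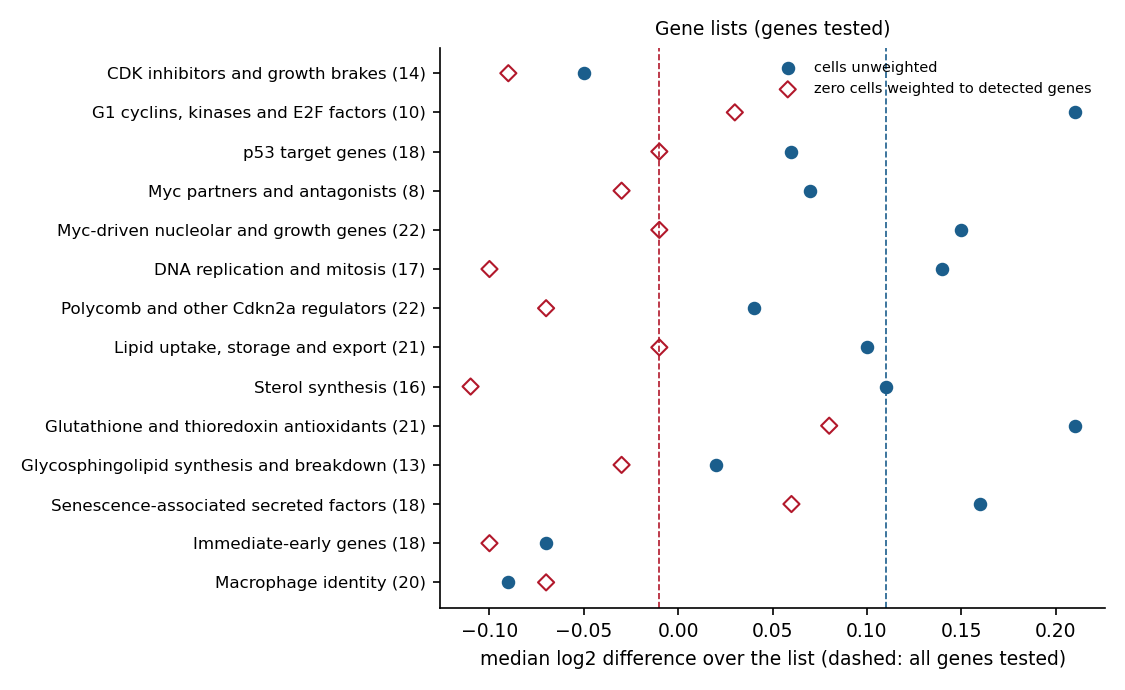
Median log2 difference, Cdkn2a-positive minus Cdkn2a-zero cells of the Egr1-low gate, over the tested genes of each list (number in brackets, naming genes included) without the outlying cells. Filled points use cells unweighted and open diamonds the weighted Cdkn2a-zero cells, and dashed lines are the medians over all genes, 0.11 and −0.01; the antioxidant list lies at 0.21 and 0.08.

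The Egr1-high B-MF, whose cells the selection left out, gave the same contrast in other cells of the same cultures. There, 184 and 176 positive cells were compared with 1831 and 1729 Cdkn2a-zero cells. Of the 8545 genes, 1661 (19.4%) were higher and 79 (0.925%) lower, and the median difference was 0.12. Apoe was at 86.6 and 70.5 counts in positive and 198 and 192 in Cdkn2a-zero cells (−1.32, limma adjusted p = 0.000553), and Gngt2 at 1.49 and 1.3 against 2.18 and 2.25 (−0.64, adjusted p = 0.0073). Ccnd1 was at 2.44 and 2.74 against 1.17 and 1.11 (1.12, adjusted p = 0.000894), and Cd36 at 3.44 and 3.41 against 1.69 and 2.08 (0.84, adjusted p = 0.0038). In these 4 called genes the positive and Cdkn2a-zero values did not overlap in either gate, which was not counted over all genes. With weighting and without the outlying cells, Apoe passed there (−1.09, adjusted p = 0.0192), and Gngt2, Ccnd1 and Cd36 did not (adjusted p = 0.139, 0.0889 and 0.139). Clec4a1 and Ccl8 had differences of −0.19 and −0.59 there (adjusted p = 0.0645 and 0.0703). At least 3 fibroblast counts were found in 3 and 4 of these positive cells, with up to 220 in a cell, and detected genes were 4228 and 3579 against 3657 and 3158.

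Of the 828 genes higher in the Egr1-low gate, 528 were also higher in the Egr1-high cells, which is 63.8% of the first list and 31.8% of the second. Of the 144 lower genes, 41 were lower in both, 28.5% and 51.9% of the lists. Both contrasts came from the same fit with a common estimate of the spread for each gene. The lists are therefore not independent, and their overlap is a description. The difference between the 2 gates was tested itself as an interaction, and by limma 0 of 8545 genes passed, 688 had an unadjusted p under 0.05, and the smallest adjusted p was 0.21. Nothing is thereby shown to be particular to the Egr1-low cells. With at least 2 Cdkn2a counts the interaction called 2 genes, Bgn and Nedd4, and with each limit reduced to 50% it called Acta2, all with a smaller difference in the Egr1-low than in the Egr1-high cells (2.46 against 3.93, 1.59 against 3.19 and 0.65 against 3.09). These 3 genes were chosen after their values were seen, and these calls include the outlying cells. In the Egr1-high cells, without their 7 outlying cells and with weighting, limma called 0 genes higher and 1 lower, with 582 higher and 717 lower at an unadjusted p under 0.05.

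Levels were also followed over the number of Cdkn2a counts, 0, 1, 2 or at least 3, without the outlying cells. Apoe was at 137, 48.1, 77.9 and 35.4 counts per cell in B-MF 1 and at 129, 55, 52.8 and 28.4 in B-MF 2, so most of the difference was reached at the first count. Pla2g7 was at 2.61, 1.18, 1.36 and 0.79 and at 2.5, 1.12, 1.18 and 1.08 counts. Gpx3, a naming gene, was higher at each step, at 2.85, 3.44, 4.17 and 4.28 in B-MF 1 and at 2.88, 3.34, 3.52 and 3.78 in B-MF 2. The other naming genes, Myc, Fabp3, Lpl and St3gal5, were not higher at each step in both libraries. Ccnd1 differed mainly between 0 and 1 count, at 2.58 and 4.1 in B-MF 1 and 2.43 and 4.14 in B-MF 2, and reached 4.66 and 4.37 at 3 or more. Myc was highest, at 0.79, at 3 or more counts in B-MF 1 and was highest, at 0.733, in cells with 1 count in B-MF 2. Id1 was likewise higher at each step, at 0.234, 0.384, 0.551 and 0.58 in B-MF 1 and at 0.241, 0.314, 0.424 and 0.449 in B-MF 2. Of the 10 genes with the largest higher values without the outlying cells, Id1 was the only one for which this held in both libraries. Of the 10 genes with the largest higher values with all cells included, those with higher means at each step in both libraries were Sparc, Bgn, Tpm2 and Serpinf1, 93.3 to 98.4% of whose counts were in the 8 outlying cells. These series are descriptions over 4 classes of cells in 2 libraries, with no test.

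**Figure D5:**
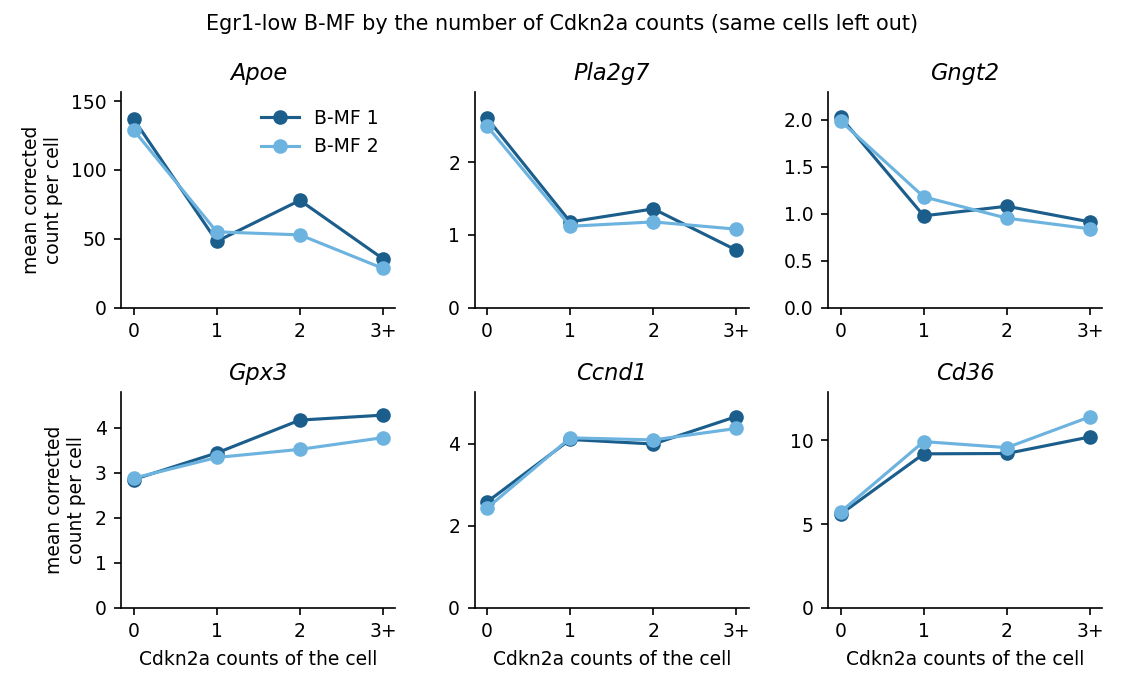
Mean corrected count per cell of 6 genes (vertical axes from 0) in cells of the Egr1-low gate with 0, 1, 2 or at least 3 Cdkn2a counts, without the outlying cells; lines are the 2 libraries. Apoe drops from 137 and 129 to 35.4 and 28.4, most of it at the first count, and Gpx3 climbs from 2.85 and 2.88 to 4.28 and 3.78. The 6 genes were not picked by a rule, and of the naming genes only Gpx3 was higher at each step in both libraries.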

How the data were processed

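Single-cell RNA-seq libraries of B-MF (2), Mo-MF (2) and TAM (4) and ATAC-seq peak lists of 12 libraries were used. For the former, the authors used Cell Ranger on mm10 and SCTransform, and the deposited values are natural logs, ln(1 + corrected count), for 15855 genes in 20798 cells in vitro. After exponentiation and subtraction of 1, 100% of entries above 0 were whole numbers within a relative tolerance of 1e-06. They are corrected and not raw counts, so no count model was fitted, totals do not give sequencing depth, and intervals cover counting error only. For ATAC-seq, the authors trimmed reads with cutadapt, aligned them with BWA and called peaks per library with MACS2, and the deposited lists give fold enrichment as a ratio over background and −log10 q-values, with 43407 to 76530 peaks per library and no depth. TAM columns could not be matched to single labels and are given per library.

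The cells, genes and lists were chosen with earlier results of these data known. Mean corrected counts per library were computed for cells with and without Cdkn2a, Egr1-low and Egr1-high, giving 8 means per gene. Genes whose mean reached 0.1 were fitted by limma (lmFit, eBayes) on log2(mean + 0.1), the library being a block, since positive and Cdkn2a-zero cells came from the same culture, and p-values were adjusted by Benjamini-Hochberg over all genes. Fold changes of low genes are understated by the added 0.1. Genes of the selection were left out of the fit. The fit was tested on simulated data drawn from its own model, with neither a difference in detected genes nor outlying cells. That test therefore does not bear on how far either moved the calls. Possible doublets were kept, without a caller. Genes named were the selecting and naming genes, the 10 largest called differences in each direction, the 4 highest and up to 4 called members of each list and, added after seeing the data, the largest differences without outlying cells and the genes still called with weighting. Weighting gave Cdkn2a-zero cells, by decile of detected genes, the distribution of the positive cells. Alternatives were other pseudocounts, filters, scaling, gates and fits, and each library left out. Software was R 4.3.3 with limma 3.58.1 and Python 3.11.15 with pandas 2.3.3, matplotlib 3.10.9, numpy 2.4.6 and scipy 1.17.1.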

Additional observations from a re-analysis of the deposited data

How the results depend on the processing

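Of the counts of called genes in the Egr1-low gate, 828 higher and 144 lower, most depended on the processing, as higher and lower genes respectively: 1136 and 270 with a pseudocount of 1, 462 and 83 with 0.01, 446 and 244 with a mean of at least 1, 402 and 70 with no filter on low values, 506 and 225 with scaled means, 2621 and 301 with only the 4 means of the gate, 36 and 16 with no replicate block, 23 and 9 with at least 2 Cdkn2a counts, 1476 and 217 with each limit reduced to 50%, 4954 and 530 with all B-MF, 122 and 52 without cells over 15% mitochondrial counts, and 11 and 4 with Cdkn2a-zero cells weighted to detected genes. The following were chosen after seeing the data: 662 and 122 without the outlying cells, 0 and 6 with weighting as well, 1 and 9 without them and with at least 2 Cdkn2a counts, 205 and 60 with weighting to replication and mitosis counts, and 2 and 6 without cells over the median of those counts. For the Egr1-high cells, 1661 higher and 79 lower became 1509 and 162 with a pseudocount of 1, 113 and 7 with no replicate block, 706 and 113 with scaled means, 48 and 6 with weighting, 1094 and 56 without the outlying cells, 0 and 1 with both, 549 and 34 with weighting to replication and mitosis counts, and 0 and 0 both below the median of those counts (1486 and 245 at an unadjusted p under 0.05) and without the outlying cells at 2 or more Cdkn2a counts (1384 and 346), all by limma. By limma the interaction called 2 genes with at least 2 Cdkn2a counts, 1 with the reduced limits, both tried after seeing the data, and 0 in the other alternatives in which it was fitted. The cause of these changes was not tested beyond the number of cells or genes each setting leaves. Reversed signs were those of Timp1 (−0.06 without the outlying cells and with weighting), Fdps (−0.0012 with weighting) and Stmn1 (−0.05 with at least 2 Cdkn2a counts, −0.04 without the outlying cells as well, −0.16 below the median of replication and mitosis counts). Of 69 named called genes, naming genes included, 25 kept their call with no replicate block and 14 with weighting. All 69 kept their sign with either library alone, which was fixed beforehand because every called gene had the same sign in both libraries. The share of positive cells in the gate, 15.4% as the mean of both libraries, was 14.1 to 16.6% with 1 library left out, 11.1% after thinning to 10000 counts, 17.2% with the reduced limits and 7.7% at 2 or more counts. With 2 libraries of the same cell type, differences between cultures or mice are not measured.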

Other observations

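In TAM, Cdkn2a counts were found in 18 of 3180, 13 of 2318, 9 of 2387 and 12 of 3000 cells of the 4 libraries. Of these positive cells, 8, 12, 7 and 6 had fewer than 20 counts over the 7 macrophage genes, and 1 cell in all had at least 3 fibroblast counts. How many of all TAM cells fell under 20 was not counted, so no excess among positive cells can be read from this. Median totals were 8266, 7651, 7808 and 7819 corrected counts per TAM cell, against 19403 and 18350 in B-MF, where the same limit was used. The study describes these TAM as coming from 4 mice, and since the numbers of the libraries differ from those in the labels, the values are listed per library.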
